A study of Mus musculus with 3 samples.

Results

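DNA methylation was measured in mouse proximal colon organoids, and the regions described here are the stretches of 1 kb that were covered by methylated DNA in both libraries with an active Braf oncogene and almost uncovered in the control library. The genome was cut into tiles of 1 kb, each made of 5 adjoining bins of 200 bp counted from position 1 of each chromosome. A tile was kept where its normalised coverage was at most 0.05 in the control library and at least 0.5 in both Braf libraries. This left 327 of 2462738 tiles, or 0.0133%. Of the 2280642 tiles that were low in the control library, the 327 made up 0.0143%. The tiles were chosen by their coverage in all 3 libraries, so this coverage is given as a description and without a test.

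The organoids came from male mice around 40 days of age and were grown from crypts of the first 2.5 cm of the proximal colon, in Matrigel with Wnt3a, R-spondin and noggin conditioned media and EGF. All 3 libraries carry the name BRAF3, and the design text describes organoids that are heterozygous for an oncogenic Braf V600E allele that stays off until Cre acts, named Braf+/LSL. The first library, Braf Base, came from organoids with lentiviral Cre that had been selected for growth in a medium free of stem-cell niche factors, called Base. The second, Braf full, came from organoids with lentiviral Cre in full medium. The third, EV, received the lentiviral backbone without Cre and stayed in full medium, so that it carries the allele in its inactive form. All had been cultured for 5 months and were then grown for 3 weeks. The labels speak of a microarray at the end of that time, while the protocol for these DNA samples is MBD-seq. The sources used here do not say whether the 3 libraries came from separate mice. Each group held 1 library, so the differences stand without replicates and without p-values. Medium and Cre cannot be told apart between Braf Base and EV, because no EV library was grown in Base medium.

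In mammals most cytosines that stand before a guanine carry a methyl group, except in CpG islands, the CpG-rich stretches at many gene starts, which are usually free of it. Methylation of such a start goes with a silent gene, and in the human colon the gain of methylation at many CpG islands is known above all from serrated tumours, which often carry mutated BRAF. In MBD-seq a methyl-CpG-binding protein domain pulls down methylated DNA fragments before sequencing. Coverage then rises with both the level of methylation and the number of CpGs, and it does not say how many cells or alleles carry the methyl groups, nor whether a gene is expressed.

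The sequence just before a gene start is given for 4 genes as single examples, which do not stand for the tiles as a set. The 4 stretches below belong to named genes whose start lies in a gained tile. Tmem150a was named among the 10 highest starts and Eid2 among the 5 longest runs of adjoining gained tiles. Mdga2 was named among the 3 highest and Lurap1 among the 3 lowest ratios of Braf Base over Braf full at starts. The 4 are not the highest starts: Hoxd11 and Nid1, for example, ranked above Tmem150a and are not printed. Each gives the 250 bases before the start, 5′ to 3′ on the strand of the gene, from RefSeq on GRCm38.p6, with every CpG in capitals. They lie at chr6:72355233-72355482 (plus strand), chr7:28267631-28267880 (plus strand), chr12:67222550-67222799 (minus strand) and chr4:116144617-116144866 (minus strand).
Tmem150a: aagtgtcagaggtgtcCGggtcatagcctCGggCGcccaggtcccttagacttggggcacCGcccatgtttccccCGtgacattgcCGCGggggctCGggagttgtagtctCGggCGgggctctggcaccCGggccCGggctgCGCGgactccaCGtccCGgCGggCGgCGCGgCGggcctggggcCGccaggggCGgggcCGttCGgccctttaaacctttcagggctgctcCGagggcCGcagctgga
Eid2: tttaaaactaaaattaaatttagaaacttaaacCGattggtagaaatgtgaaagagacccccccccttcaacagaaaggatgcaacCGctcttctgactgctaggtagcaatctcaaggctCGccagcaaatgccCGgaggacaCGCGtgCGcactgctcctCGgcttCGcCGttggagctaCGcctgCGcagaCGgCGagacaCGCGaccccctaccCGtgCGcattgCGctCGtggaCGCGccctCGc
Mdga2: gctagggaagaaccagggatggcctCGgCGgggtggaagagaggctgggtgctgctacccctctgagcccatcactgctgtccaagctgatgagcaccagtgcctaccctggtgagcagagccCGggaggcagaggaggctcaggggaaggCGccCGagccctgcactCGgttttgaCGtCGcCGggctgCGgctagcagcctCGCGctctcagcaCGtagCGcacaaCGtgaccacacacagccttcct
Lurap1: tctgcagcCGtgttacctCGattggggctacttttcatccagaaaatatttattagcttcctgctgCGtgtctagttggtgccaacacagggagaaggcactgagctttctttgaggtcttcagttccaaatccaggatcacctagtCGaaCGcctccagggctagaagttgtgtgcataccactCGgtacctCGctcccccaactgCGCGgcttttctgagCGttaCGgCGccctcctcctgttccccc
The stretches hold 27, 23, 15 and 12 CpGs in that order, against a median of 10 and quartiles of 3 and 19 over the same stretch of 20085 promoters. Over the bins that hold the Tmem150a stretch, mean coverage was 6.30 in Braf Base, 4.46 in Braf full and 0 in EV. At Eid2 it was 5.95 in Braf Base, 3.77 in Braf full and 0 in EV. The Mdga2 stretch had 6.11 in Braf Base, 0.539 in Braf full and 0 in EV. Lurap1 had 0.574 in Braf Base, 1.69 in Braf full and 0 in EV. All 4 stretches were thus without a single read overlap in EV, and the Braf libraries ranked differently among them.

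Depth was modest and differed between libraries. An estimated 5985362 reads stood behind Braf Base, 8648828 behind Braf full and 5041726 behind EV. Braf full had a more even background than the others: no read fell in 43.3% of its bins, against 83.0% in Braf Base and 87.2% in EV. Its median tile had a coverage of 0.0392, while the median tile of Braf Base and of EV had 0. The share of tiles with a coverage of at least 0.5 was close in the 3 libraries, at 1.79% in Braf Base, 1.93% in Braf full and 2.10% in EV. Tiles of at least 0.5 that were low in EV numbered 714 in Braf Base and 556 in Braf full, and the 327 are those in both.

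Coverage of the 327 tiles reached from 0.504 to 6.39 in Braf Base, with a median of 1.02 and quartiles of 0.752 and 1.67. In Braf full it reached from 0.510 to 7.26, with a median of 0.911 and quartiles of 0.661 and 1.37. In EV it reached from 0 to 0.0402, with a median of 0.0201. The median tile rested on an estimated 56 reads in Braf Base, 38 in Braf full and 1 in EV. EV had no overlap at all in 93 tiles (28.4%), 1 overlap in 37, 2 in 74, 3 in 69 and 4 in 54. For an EV tile with no overlap, the count of 0 was set to 3 reads. On that setting coverage was at least 6.93-fold higher in Braf Base and at least 6.81-fold higher in Braf full at the weakest such tile. These lower bounds leave out the counting error of the Braf reads and are not interval limits. Intervals given here are exact binomial (Clopper-Pearson) at 95% on estimated reads. They hold for the counting error of these libraries and say nothing on how conditions vary.

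**Figure D1:**
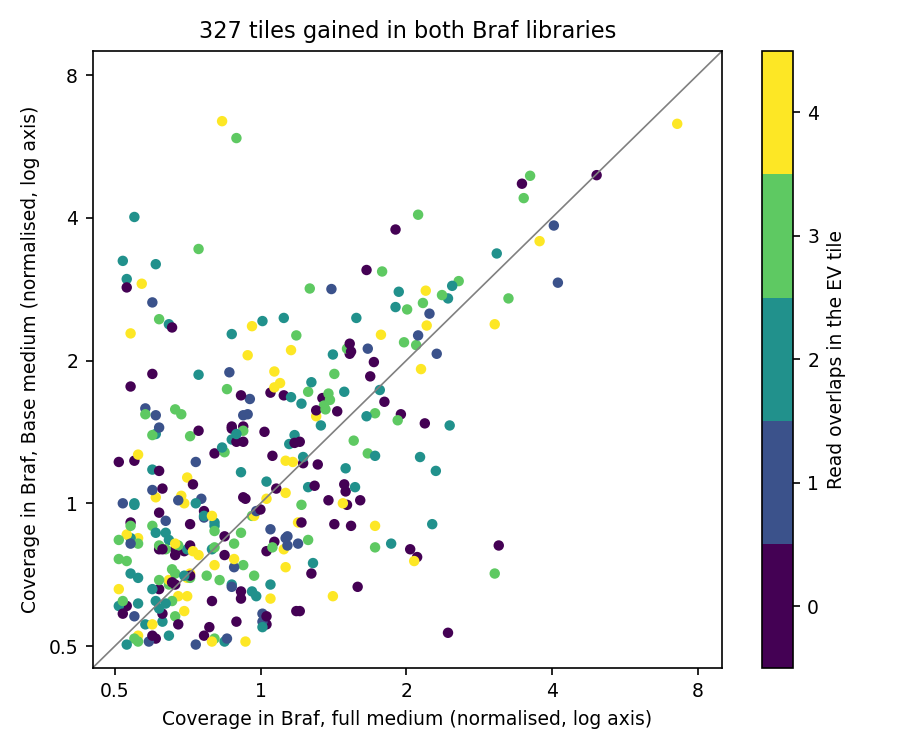
Normalised coverage of each of the 327 gained tiles in Braf Base (vertical, log axis) and Braf full (horizontal, log axis); each point is 1 tile, its colour gives the number of read overlaps in EV (0 to 4), and the line marks equal coverage. The points above the line, 197 tiles, were higher in Braf Base, and tiles without an EV overlap occur over most of the range.

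Tiles on either side of the thresholds had close values. Just inside the EV limit lay a tile within Ptprs on chr17:56425001-56426000, with 6.31 in Braf Base, 7.26 in Braf full and 0.0402 in EV, and the tile at the start of Nid1. Just outside lay chr12:3235001-3236000, with 6.93 in Braf Base, 4.84 in Braf full and 0.0502 in EV, and chr2:18026001-18027000, with 4.30, 2.82 and 0.0502 in the same order. Just inside the Braf limit lay chr14:28509001-28510000, with 0.504 in Braf Base and 0.529 in Braf full, and chr12:76082001-76083000, with 0.504 and 0.735. Just outside lay chr13:91741001-91742000, with 1.29 in Braf Base and 0.4998 in Braf full, and chr2:129038001-129039000, with 1.51 and 0.4998.

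Most of the tiles did not adjoin another gained tile. Adjoining tiles were joined into 304 runs, of which 281 were 1 tile long and 23 were 2 tiles long, and no run was longer. Within a tile the signal was peaked: the median of the highest bin was 2.52 in Braf Base, 2.20 in Braf full and 0.0502 in EV. All 5 bins reached 0.5 in 35 tiles of Braf Base and 24 of Braf full, and 3 bins did in 147 and 138. On both sides of 189 runs (62.2%) the next tile was also low in EV, while 28 runs (9.21%) lay beside a tile of at least 0.5 in EV. The matching shares for all low-EV tiles were not computed, so these counts have no background beside them. Of the 478 low-EV tiles next to a run, 15.9% reached 0.25 in Braf Base and 14.0% in Braf full, against 0.0613% and 0.0970% of all low-EV tiles. A methylated fragment that lies across a tile border counts in both tiles, and how much of this share comes from such fragments was not tested.

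The tiles were concentrated at gene starts, and the rule did not use position directly. It did ask for high MBD-seq coverage, which rises with the number of CpGs, and many gene starts are CpG-rich. The part of this in the share at starts was not tested. Within 1 kb of a start listed in RefSeq, or of either end of a gene with no listed start, lay 172 of the 327 tiles (52.6%). This was the case for 2.85% of all low-EV tiles and for 5.35% of the 38531 tiles that reached 0.5 in all 3 libraries. Of the 172 tiles, 132 lay at a listed start and 40 at an end of a gene without one, where it is not known which end is the start. A further 98 tiles (29.97%) lay inside a gene, 8 (2.45%) at the start of a long noncoding RNA, and 49 (15.0%) between genes. Tiles that reached 0.5 in Braf Base and were at most 0.05 in both full medium libraries numbered 40, and 25 of these (62.5%) lay at a start or end. Of all tiles, 94.1% were at most 0.05 in Braf Base, 64.1% in Braf full and 92.6% in EV, and the part of this in that number was not tested. The same count was 24 of 67 (35.8%) for tiles gained in Braf full alone, and 11 of 31 (35.5%) for tiles covered in EV and lost in both Braf libraries. With 1 library per group these differences in share are descriptions.

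**Figure D2:**
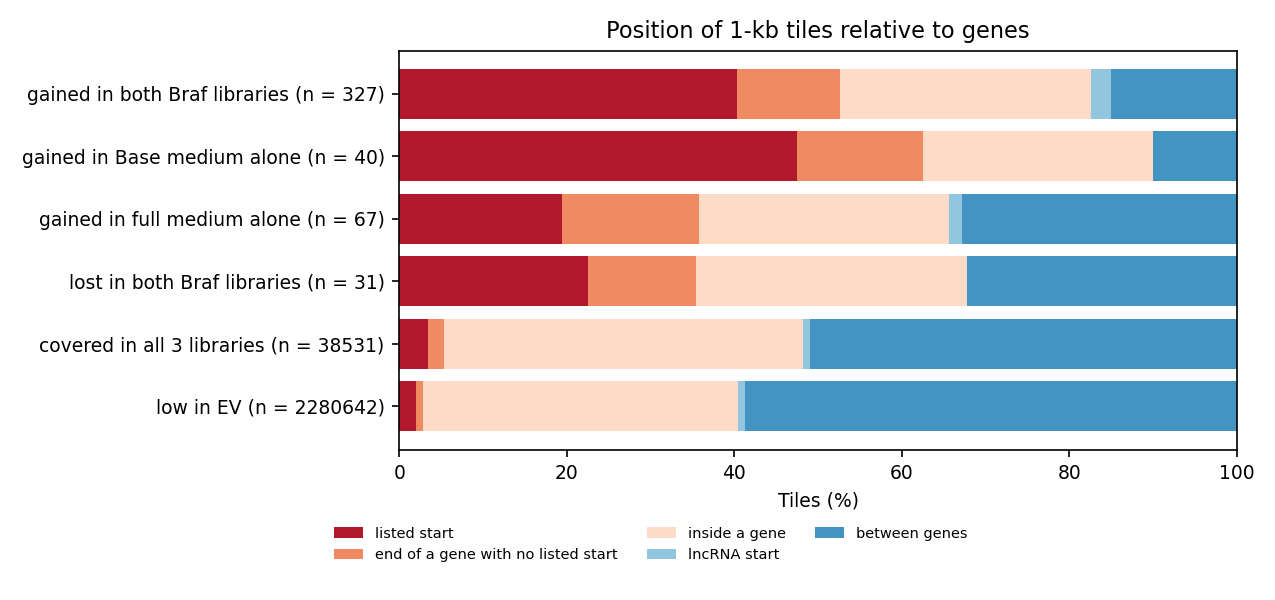
Share of 1-kb tiles (horizontal axis, %) by position relative to genes, for tiles gained in both Braf libraries, in Braf Base alone and in Braf full alone, tiles lost in both, tiles covered in all 3 libraries and tiles low in EV; the number of tiles stands beside each bar. Listed starts and ends of genes with no listed start together take 52.6% of the tiles gained in both and 2.85% of those low in EV.

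At the 130 genes with a listed start within 1 kb of a gained tile, mean coverage of the bin at the start was 2.06 in Braf Base, 1.62 in Braf full and 0.0687 in EV. At 600 bases upstream it was 0.415 in Braf Base, 0.295 in Braf full and 0.0174 in EV. At 600 bases downstream it was 1.001 in Braf Base, 0.793 in Braf full and 0.0683 in EV. Between these distances the Braf signal was thus higher inside the gene than upstream of it. The starts were chosen for a gained tile within 1 kb, so a Braf peak near the start and low EV coverage there follow largely from that choice, and the profile is a description. Around 2000 bases downstream the 3 libraries met, at 0.217 in Braf Base, 0.203 in Braf full and 0.207 in EV.

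**Figure D3:**
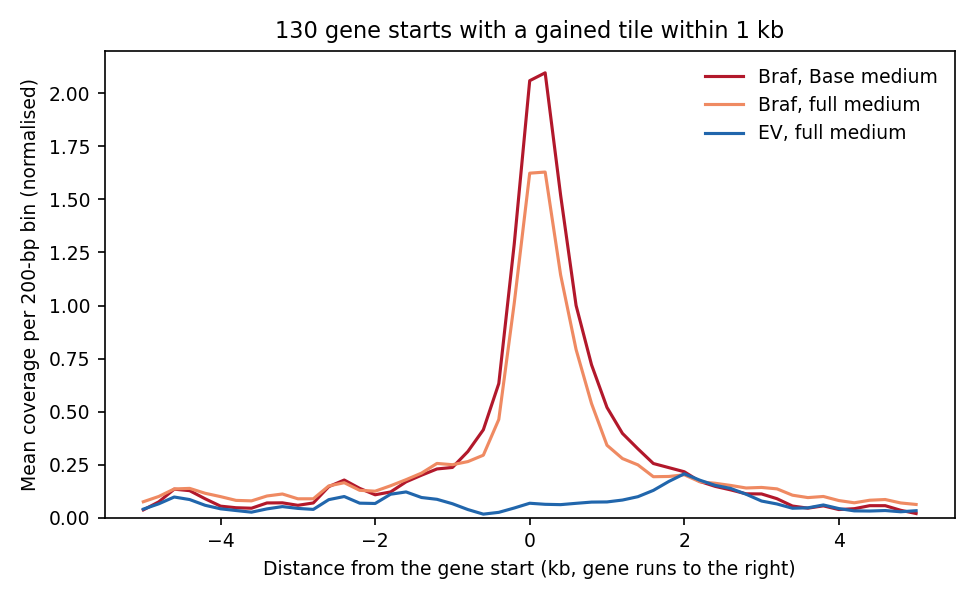
Mean normalised coverage per 200-bp bin (vertical) against the distance from the gene start (horizontal, kb, with the gene running to the right) over the 130 listed starts with a gained tile within 1 kb; each line is 1 library. Both Braf lines peak at the start, at about 2 in Braf Base and 1.62 in Braf full, and EV stays below 0.25 throughout.

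The starts in gained tiles were rich in CpG. Over the 300 bases from 250 before to 50 after the start, the 93 starts that lay in a gained tile held a median of 21 CpGs with quartiles of 13 and 31. Their median ratio of observed to expected CpG was 0.682 and their median GC content was 63.7%. The 17225 starts in low-EV tiles had medians of 13 CpGs, a ratio of 0.588 and a GC content of 56.3%. A ratio over 0.6, one of the usual marks of a CpG island, was found at 67 of the 93 starts (72.0%), against 49.2% of starts in low-EV tiles and 52.8% of the 655 starts in tiles covered in all 3 libraries. MBD capture favours CpG-rich fragments, and its part in this difference was not tested. The 13 starts in tiles gained in Braf Base alone had a median of 25 CpGs, and the 8 in tiles gained in Braf full alone had 17.

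Gained tiles also lay near DNA that was already methylated in EV more often than other low-EV tiles did. A tile with an EV coverage of at least 0.5 stood within 5 kb of 80 of the 327 (24.5%), against 11.4% of all low-EV tiles. At gene starts and ends the shares were 41 of 172 (23.8%) and 17.1%. By chromosome, gained tiles were most frequent on chromosome 7, with 32 of 145441 tiles, and least frequent on chromosome 1, with 15 of 195472 tiles.

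A gained tile lay within 1 kb of a start, or of an end where no start is listed, at 170 of 20665 protein-coding genes (0.823%). The share was 0.79% of the 16457 genes with a listed start (130 genes) and 0.951% of the 4208 genes without one (40 genes). In 88 of these genes the tile with the highest coverage held the listed start itself, in 26 it lay downstream of it and in 16 upstream. Some neighbouring genes share 1 tile, such as the histone genes H1f1 and H3c1, so the genes are not independent of each other.

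Among the 10 starts with the highest coverage in the lower of the Braf libraries, Hoxd11, a homeobox factor of the posterior body axis and the limb, came first. Its tile on chr2:74682001-74683000 had 4.90 in Braf Base, 3.61 in Braf full and 0.0301 in EV. Over its 5 bins Braf Base had 2.19, 4.89, 7.45, 6.33 and 3.67, Braf full had 0.539, 3.04, 5.49, 5.24 and 3.72, and EV had 0 in the first 2 bins and 0.0502 in each of the others. The whole tile was filled in both Braf libraries, and EV held only 3 overlaps. The ratio to EV was 163 in Braf Base (95% interval 35.0 to 7799) and 119.7 in Braf full (25.5 to 5739), wide because EV held so few reads.

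Tmem150a, a membrane protein that helps to place a phosphatidylinositol kinase at the plasma membrane, was the highest start with no EV overlap. Its tile on chr6:72355001-72356000 had 4.72 in Braf Base, 3.47 in Braf full and 0 in EV. Coverage was therefore at least 63.1-fold higher in Braf Base and at least 46.3-fold higher in Braf full than in EV. The CpG-dense stretch printed above lies in the middle of this peak, where the third bin of the tile reached 7.04 in Braf Base, 5.10 in Braf full and 0 in EV.

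Nid1, B4galt2 and Enpp2 were among the other high starts. Nid1, which encodes the basement membrane glycoprotein nidogen, had 3.57 in Braf Base, 3.77 in Braf full and 0.0402 in EV. B4galt2, a galactosyltransferase, had 2.92 in Braf Base, 4.12 in Braf full and 0.0100 in EV, and it was 1 of the 3 among these 10 genes with a single EV overlap. Enpp2 encodes autotaxin, the secreted enzyme that makes lysophosphatidic acid. At an end of Enpp2 coverage was 2.87 in Braf Base, 2.49 in Braf full and 0.0201 in EV. Nid1 and B4galt2 were higher in Braf full, while the other 8 of the 10 genes were higher in Braf Base.

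The remaining 5 of the 10 differ in what they do. Ogfod2, a member of the oxygenases that need iron and 2-oxoglutarate, had 4.40 in Braf Base, 3.50 in Braf full and 0.0301 in EV. Hjurp, the chaperone that brings the histone variant CENP-A to centromeres, had 2.94 in Braf Base, 2.57 in Braf full and 0.0301 in EV. Fgf11, a fibroblast growth factor relative that stays inside the cell, had 2.51 in Braf Base, 2.23 in Braf full and 0.0100 in EV. Coverage of these 3 starts differed by less than 1.5 times between the Braf libraries. Btbd11, a BTB domain protein, had 2.65 in Braf Base, 2.17 in Braf full and 0.0301 in EV. Necab2, a neuronal calcium-binding protein, had 2.26 in Braf Base, 2.12 in Braf full and 0.0100 in EV.

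Developmental transcription factors were frequent at gained tiles. Of 258 measured genes on 3 lists of such factors, 17 (6.59%) had a gained tile, against 0.823% of all protein-coding genes. The tile lay within 1 kb of a start, or of an end where no start is listed. For Cdx1, Hand1, Sox17, Sox18, Foxf1, Scrt1 and Nkx6-3 it was an end, and which end is the start is not known. The lists were drawn up with earlier results of these data known, so the count is a description. The Hox and ParaHox list held 4 of 42, the list of other homeobox genes 5 of 100 and the list of other developmental factors 8 of 116.

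In the Hox and ParaHox list Hoxd11 was followed by Hoxa6, a factor of the body axis, with 2.16 in Braf Base, 2.10 in Braf full and 0.0301 in EV. Cdx1, a ParaHox factor that helps to set intestinal identity, had 1.47 in Braf Base, 2.19 in Braf full and 0 in EV in a tile 199 bases from a gene end on chromosome 18. That was at least 19.7-fold higher in Braf Base and at least 29.2-fold higher in Braf full than in EV. The Cdx1 peak was highest in the last 2 bins of its tile, which had 2.96 and 2.19 in Braf Base, 4.31 and 4.46 in Braf full and 0 in EV. The same tile reaches an end of the predicted gene Gm52351. Hoxd8 had 1.0002 in Braf Base, 0.519 in Braf full and 0.0100 in EV. Cdx2, the other ParaHox factor of the intestinal epithelium, had no gained tile, with 0 in Braf Base, 0.0588 in Braf full and 0 in EV at its start.

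Among homeobox genes outside the Hox clusters, Msx2, a target and mediator of BMP signals, had 5.89 in Braf Base, 0.892 in Braf full and 0.0301 in EV. Nkx6-3, a factor of the gastric epithelium, had 2.84 in Braf Base, 1.26 in Braf full and 0.0301 in EV at 948 bases from an end of the gene. Hmx2, a factor of the inner ear, had 1.21 in Braf Base, 1.31 in Braf full and 0 in EV. Pou4f2, which retinal ganglion cells need, had 1.0002 in Braf Base, 1.48 in Braf full and 0.0402 in EV. The fifth gene was Nkx2-4, with 0.845 in Braf Base, 0.539 in Braf full and 0.0201 in EV. Msx2 and Nkx6-3 leaned to Braf Base, and Pou4f2 to Braf full.

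The other developmental factors included Hand1 and Hand2, a pair of basic helix-loop-helix factors of heart development. Hand1 had 2.79 in Braf Base, 1.93 in Braf full and 0.0201 in EV at 288 bases from an end of the gene. Hand2 had 1.72 in Braf Base, 1.25 in Braf full and 0.0301 in EV. Both differed by less than 1.5 times between the Braf libraries. Sox17, an endoderm factor that counters beta-catenin, was gained near both ends of the gene, on 2 adjoining tiles at one end and 1 tile at the other. The tile at the first end, chr1:4491001-4492000, had 1.74 in Braf Base, 0.853 in Braf full and 0.0301 in EV. The tile at the other end, chr1:4497001-4498000, had 1.13 in Braf Base, 0.706 in Braf full and 0.0402 in EV. Pax2, a factor of the kidney and the midbrain border, had 1.09 in Braf Base, 1.29 in Braf full and 0 in EV. The other members of the list were Sox18, Foxf1, Sox2 and Scrt1, and none of these reached 1 in either Braf library.

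**Figure D4:**
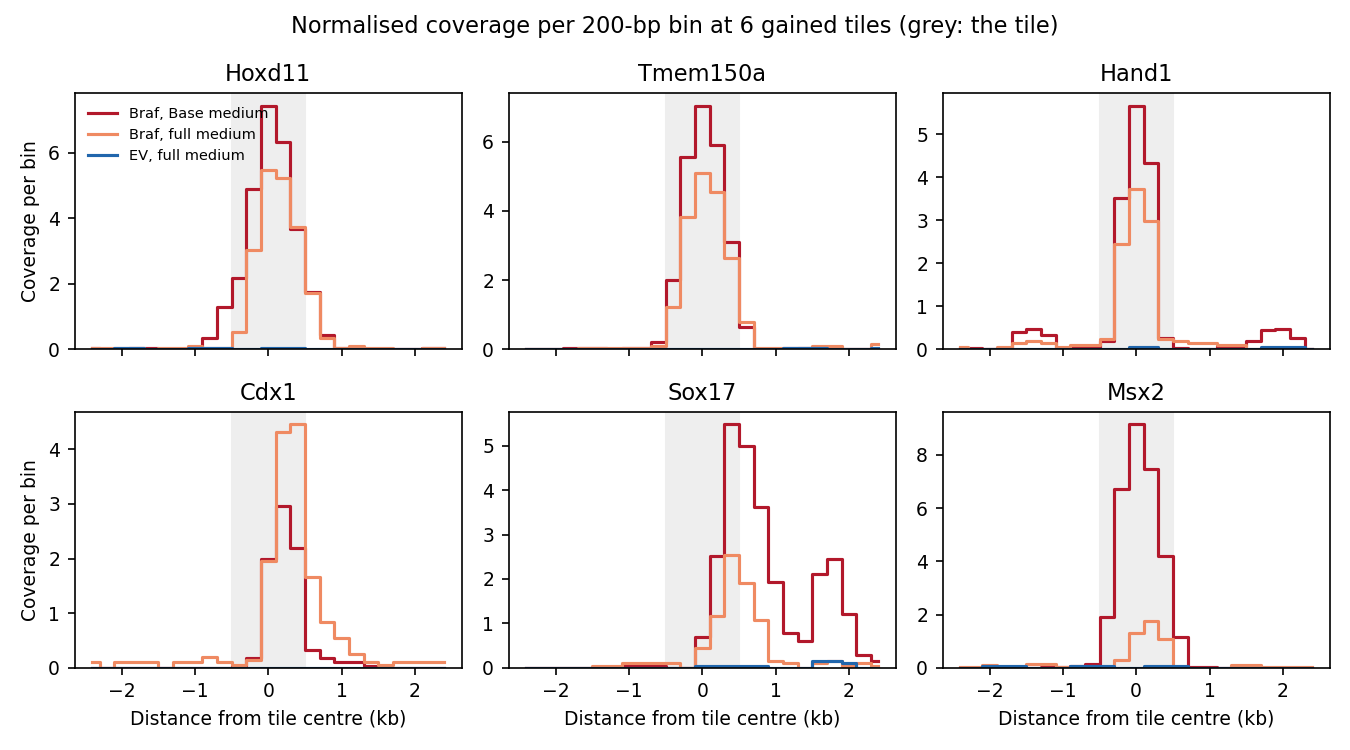
Normalised coverage per 200-bp bin (vertical) against the distance from the centre of a gained tile (horizontal, kb) at Hoxd11, Tmem150a, Hand1, Cdx1, Sox17 and Msx2; each line is 1 library and grey marks the tile. Both Braf libraries peak at each locus, Cdx1 is higher in Braf full, Msx2 is far higher in Braf Base (5.89 against 0.892 over the tile), and EV stays near 0.

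Genes that restrain Wnt signals gave 2 of 33 (6.06%), against 0.823% of all protein-coding genes. Shisa3, which holds Frizzled receptors back in the endoplasmic reticulum, had 1.07 in Braf Base, 1.08 in Braf full and 0 in EV. Sfrp2, a secreted decoy for Wnt proteins, had 1.45 in Braf Base, 0.921 in Braf full and 0 in EV, and it was also the only hit among 40 mouse counterparts of human methylator panels and methylation biomarkers (2.50%). Sfrp2 was at least 19.4-fold higher in Braf Base and at least 12.3-fold higher in Braf full than in EV. None of 29 Wnt ligands and receptors and none of 46 genes of BMP, TGF-beta and hedgehog signalling had a gained tile, and at the share of all genes both lists would hold fewer than 1. Counts of 1 or 2 on lists of this size are too small to set apart from the background.

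Among colonic differentiation genes 1 of 30 was hit (3.33%, against 0.823% of all protein-coding genes). It was Scnn1b, the beta subunit of the epithelial sodium channel of the distal colon, with 2.06 in Braf Base, 1.41 in Braf full and 0.0201 in EV. Among tumour suppressor and senescence genes 2 of 41 were hit (4.88%, against the same 0.823%). Slit2, a secreted ligand of Robo receptors, had 1.72 in Braf Base, 1.49 in Braf full and 0.0201 in EV. Ptprm, a receptor tyrosine phosphatase of cell contacts, had 2.90 in Braf Base, 0.568 in Braf full and 0.0402 in EV. Cdkn2a, the p16 and p19Arf locus, was not among the gained tiles because EV was above the limit there, with 1.10 in Braf Base, 1.15 in Braf full and 0.151 in EV. Igfbp7, a secreted protein tied to Braf-driven senescence, was left out for the same reason, with 2.14 in Braf Base, 1.83 in Braf full and 0.381 in EV. Over the 3 tiles near its start the highest coverage was 2.14 in Braf Base, 2.22 in Braf full and 2.36 in EV. Another tile near the Igfbp7 start was thus well covered in EV. Braf itself had no gain at its start, with 0.0296 in Braf Base, 0.0490 in Braf full and 0 in EV.

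Neural channels and receptors gave 4 of 64 (6.25%), against 0.823% of all protein-coding genes, and 2 of the 4 are neighbours. Cacna1b, the pore of N-type calcium channels, had 2.42 in Braf Base, 1.01 in Braf full and 0.0201 in EV. Syt6, a synaptotagmin, had 1.22 in Braf Base, 0.735 in Braf full and 0.0100 in EV. The neighbouring neuropeptide Y receptors Npy5r and Npy1r on chromosome 8 were both hit. Npy5r had 0.763 in Braf Base, 0.882 in Braf full and 0.0402 in EV, and Npy1r had 0.585 in Braf Base, 0.519 in Braf full and 0 in EV. The receptors stayed close to the threshold of 0.5, and Cacna1b stood well above it in Braf Base.

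No gained tile was found at the starts of 30 intestinal transcription factors, 26 stem cell, fetal-like and gastric genes, 28 genes of MAPK feedback and output, 23 imprinted genes, 31 germline genes or 29 housekeeping genes. Markers of colon epithelium (16 genes), mesenchyme (18), immune cells (16) and endothelial or neural cells (16) also had none. These markers describe expression, which MBD-seq does not measure, so they do not check the cell type. At the share of all genes, each of these 10 lists would hold fewer than 1 hit, and a count of 0 is near that background.

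**Figure D5:**
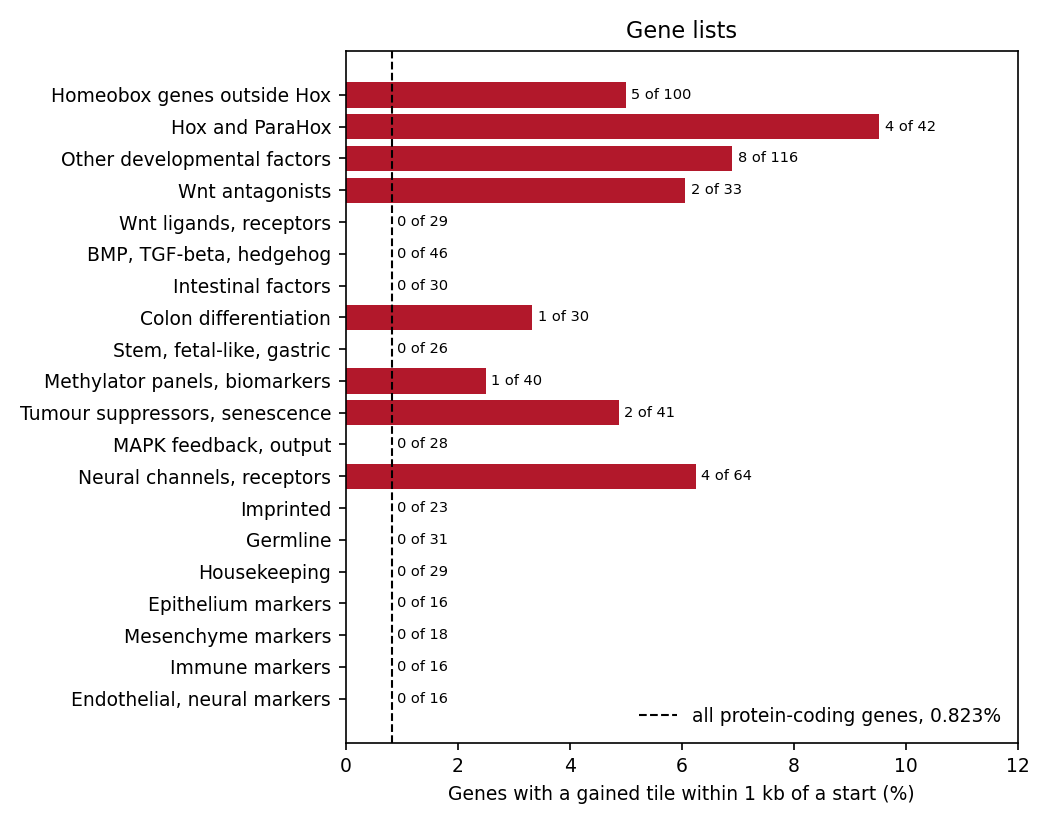
Share of genes on each list with a gained tile within 1 kb of a start, or of an end where no start is listed (horizontal axis, %). The count stands beside each bar. The dashed line marks the share of all protein-coding genes, 0.823%. The Hox and ParaHox list stands highest, with 4 of 42, and 12 lists hold none.

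The 2-tile runs, the longest found, lay at starts and away from them. The strongest of these lay between genes, on chr11:120185001-120187000, with 3.09 in Braf Base, 3.54 in Braf full and 0.0100 in EV. Another lay inside Cyp26b1, a retinoic acid degrading enzyme, on chr6:84585001-84587000, with 2.21 in Braf Base, 2.46 in Braf full and 0.00502 in EV. The run at Spata32, named for its link to spermatogenesis, covered chr11:103217001-103219000 with 1.99 in Braf Base, 2.05 in Braf full and 0.0251 in EV. Eid2, an inhibitor of differentiation that acts on the coactivator p300, had 2.63 in Braf Base, 1.89 in Braf full and 0.0301 in EV on chr7:28267001-28269000. The last of the 5 lay between genes on chr7:16299001-16301000, with 1.78 in Braf Base, 2.20 in Braf full and 0.0201 in EV. None of these 5 runs differed by more than 1.5 times between the Braf libraries.

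Between the Braf libraries the 327 tiles leaned to Braf Base. Coverage was higher in Braf Base in 197 tiles (60.2%) and higher in Braf full in 130. The median log2 ratio of Braf Base over Braf full was 0.16 with quartiles of −0.23 and 0.60. Over the tiles covered in all 3 libraries the median was −0.11, and 37.8% were higher in Braf Base. The ratio was above 1 beyond its counting interval in 83 tiles, below 1 in 33 and not resolved in 211. These interval counts were not computed for the tiles covered in all 3 libraries, so they have no background beside them. The rule used both Braf coverages, and the counts are a description. The size of the lean depends on the scaling: with libraries brought to equal total coverage 312 of the 327 (95.4%) were higher in Braf Base. The even background of Braf full adds to its total in that scaling.

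At starts the lean to Braf Base was strongest at Mdga2, a membrane-anchored protein of synapses, with 6.39 in Braf Base, 0.833 in Braf full and 0.0402 in EV. Its ratio of Braf Base over Braf full was 7.68 (95% interval 5.44 to 11.3). Msx2 followed with a ratio of 6.61 (4.66 to 9.40). Ntm, the neural adhesion molecule neurotrimin, had 3.25 in Braf Base, 0.519 in Braf full and 0.0201 in EV, a ratio of 6.25 (3.996 to 10.2). All 3 passed the limit in Braf full by less than 2 times. Ratios of at least 2 were found in 37 tiles, and the matching share of other tiles was not computed.

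At the other end Zfp37, a zinc finger gene, had 0.533 in Braf Base, 2.44 in Braf full and 0 in EV, a ratio of 0.219 (0.139 to 0.333). Lurap1, an adaptor protein of NF-kappaB signalling, had 0.771 in Braf Base, 2.11 in Braf full and 0 in EV, a ratio of 0.366 (0.247 to 0.534). Rasd1, a small GTPase induced by glucocorticoids, had 0.667 in Braf Base, 1.59 in Braf full and 0 in EV, a ratio of 0.420 (0.270 to 0.634). All 3 were without an EV overlap. At least 2 times higher coverage in Braf full was found in 13 tiles, again without a share of other tiles beside it.

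The background around the tiles was compared between libraries. Within 500 kb, the mean coverage of tiles under 0.5 in all 3 libraries, relative to that of the whole genome, gave a ratio of Braf Base over EV that had a median of 1.06 over the 327 tiles and passed 1.5 in 13 of them (3.98%, against 1.72% of all tiles). In Braf full over EV the median was 0.912, and the ratio passed 1.5 in 28 tiles (8.56%, against 13.2% of all tiles). EV over Braf full passed 1.5 in 58 of the 327 tiles. The share of all tiles that did so was not computed, so this count has no background beside it. The part of such regional differences, which DNA copy number can also give, was not tested.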

How the data were processed

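MBD-seq libraries of 3 organoid samples were used, 1 per group. Per the labels' protocols, DNA (100 to 200 ng) was broken by sonication into pieces of 200 to 400 bp, captured with methyl-binding polypeptides on beads and sequenced as 50-bp single reads. Per the submitters' processing notes, the tool was Bowtie2 and the build mm10. The counting and scaling steps are not given in the sources used here. As a result, the meaning of a coverage of 1 is set by an unknown scaling. The authors deposited log2 values for the autosomes, 1 to 19, in 12313737 bins of 200 bp. The sex chromosomes were not analysed here. Raised to a power of 2, every deposited log2 value was a floor of 0.0153 plus whole steps of 0.0370 in Braf Base, 0.0490 in Braf full and 0.0502 in EV, within 0.001 of a step. Each whole number was read as the overlaps of reads with that bin, and normalised coverage is this number times the step.

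Total overlaps were 14850571 in Braf Base, 20914446 in Braf full and 12530155 in EV. Dividing by the bins that a lone read covers (2.48 in Braf Base, 2.42 in Braf full and 2.49 in EV) gave estimated reads. A fold against a tile with no EV overlap is a lower bound against 3 estimated reads, a coverage of 0.0748 in EV. Gene starts came from RefSeq promoters on GRCm38.p6, which has the coordinates of mm10, and for 4208 of the 20665 protein-coding genes, which have no listed start there, both gene ends of the RefSeq gene table were used. Counts of genes at a start, and genes named at a start, include these ends.

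Named genes are the 10 highest runs at starts by the lower Braf coverage, the 5 longest runs, the 3 highest and 3 lowest ratios of Braf Base over Braf full at starts, up to 4 genes of each of 20 lists, and a fixed set (Cdx1, Cdx2, Sox17, Hand1, Cdkn2a, Igfbp7 and Braf). Genes named outside this rule (H1f1, H3c1, Gm52351, Nkx2-4, Sox18, Foxf1, Sox2, Scrt1, and those of the closing observations) were chosen after their values were seen. The members and lists were chosen with earlier results of these data known. With 1 library per group no test was made. Alternatives changed the thresholds, the scaling, the background, the tile size and offset and the distances. The code of the tile step was checked on simulated tiles well away from the limits. This check says nothing on the accuracy of calls in these data. Python 3.11.15, numpy 2.4.6, pandas 2.3.3, scipy 1.17.1 and matplotlib 3.10.9 were used.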

Additional observations from a re-analysis of the deposited data

How the results depend on the processing

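The number of gained tiles depended mainly on the thresholds. It was 93 with no EV overlap allowed, 528 with an EV limit of 0.1, 758 with a Braf minimum of 0.25 and 104 with a Braf minimum of 1. Runs then numbered 91, 476, 669 and 101, genes at a start 57, 280, 356 and 61, and genes on the lists 7, 41, 59 and 13, in the same order. With libraries scaled to equal totals there were 197 tiles, 186 runs, 111 genes and 17 list genes, and the median log2 ratio of Braf Base over Braf full was 0.87. That scaling shifts log2 coverage relative to EV by 0.19 in Braf Base and −0.70 in Braf full, and scaling to an equal median of covered tiles shifts it by 0.25 and 0.18. Tiles of 2 kb gave 163 tiles, 160 runs and 107 genes. With 1-kb tiles, 108 genes had a tile that holds a listed start, or an end where no start is listed. The share of gained tiles near DNA methylated in EV was 14.7% with neighbours within 2 kb, against 4.52% of all low-EV tiles. With an EV minimum of 0.25 for the neighbour it was 32.7%, against 16.2% of all low-EV tiles. It was 19.4% with no EV overlap allowed and 11.7% with 2-kb tiles and neighbours within 4 kb. For no EV overlap and for 2-kb tiles the matching share of other tiles was not computed.

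Equal-median scaling (401 tiles), subtraction of each library's median tile (305) and an offset of 2 bins (311) kept the count within 1.5 times, and the last of these shared 112 of its 170 genes with the 170 reported. Of the 37 named genes with a gained tile, 10 kept one with no EV overlap allowed, 24 with a Braf minimum of 1, 32 at equal totals, 34 after subtraction, 28 with the offset and 23 with 2-kb tiles. The mirror count of tiles lost in both Braf libraries, added after seeing the data, was 31. It became 64 at equal totals, 77 after subtraction, 128 with the limit of 0.1 and 231 with the minimum of 0.25. It was 36 with the offset, 19 at equal medians, 11 with a minimum of 1, 11 with 2-kb tiles and 2 with no overlap allowed. A lost tile needs at most 0.05 in Braf full, which 64.1% of all tiles had, against 92.6% in EV. The part of this in the low mirror count was not tested. Depth limits EV, where the difference between 0 and 4 overlaps in a tile is about 2 reads. No paired analysis was possible because each group held 1 library.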

Other observations

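The genes and regions below were chosen after their values were seen. Away from starts, the gained tile with the highest coverage in the lower Braf library lay inside Ptprs, a receptor tyrosine phosphatase, as given above. Pdx1, a factor of the pancreas and duodenum, had a tile inside the gene with 2.56 in Braf Base, 2.01 in Braf full and 0.0301 in EV. Gata4, a factor of heart and foregut, had 2.12 in Braf Base, 1.51 in Braf full and 0.0301 in EV inside the gene. Bnc2, a zinc finger protein, had 4.06 in Braf Base, 2.12 in Braf full and 0.0301 in EV inside the gene. A tile on chr7:143465001-143466000, at the start of the long noncoding RNA Gm33663 and 3942 bases from Cdkn1c, an imprinted inhibitor of the cell cycle, had 3.78 in Braf Base, 1.90 in Braf full and 0 in EV. A tile 16079 bases from Socs3, a brake on cytokine signals, had 3.10 in Braf Base, 1.66 in Braf full and 0 in EV.

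More genes with a gained tile at a start or end are given here as single values. Rspo2, an R-spondin that strengthens Wnt signals, had 1.61 in Braf Base, 1.35 in Braf full and 0.0301 in EV. Cxcl12, the ligand of the chemokine receptor CXCR4, had 2.45 in Braf Base, 0.617 in Braf full and 0.0301 in EV. Reln, which encodes the matrix protein reelin, had 2.59 in Braf Base, 1.90 in Braf full and 0.0201 in EV. These 3 were higher in Braf Base. Fgfr1, a fibroblast growth factor receptor, had 0.748 in Braf Base, 1.28 in Braf full and 0.0201 in EV. Flt1, a receptor of vascular endothelial growth factor, had 0.845 in Braf Base, 1.13 in Braf full and 0.0100 in EV. Adora1, an adenosine receptor, had 1.17 in Braf Base, 2.30 in Braf full and 0.0201 in EV. These 3 were higher in Braf full.

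Some families had several members with a gained tile. These were 3 of 5 neuropeptide Y receptor genes (Npy1r, Npy2r and Npy5r), 2 of 4 cerebellins (Cbln1 and Cbln2), 4 of 75 histone genes (H1f1, H2aj, H2bu2 and H3c1) and 3 of 20 receptor tyrosine phosphatases (Ptprd, Ptprg and Ptprm). Of 92 potassium channel genes 3 had one (Kcnc4, Kcnk3 and Kcnk4). None of 1104 olfactory receptor genes had one, and 5 of 388 genes named Zfp did, against 0.823% of all protein-coding genes. MBD capture favours CpG-rich fragments, and its part in these counts was not tested. H1f1 and H3c1 share 1 tile.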
